A study of Mus musculus with 20 samples.

Results

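Leucine, isoleucine and valine are broken down in mitochondria through a short shared route, and the 10 genes described here encode its first steps and the controls on them: Bcat1, Bcat2, Bckdha, Bckdhb, Dbt, Dld, Bckdk, Ppm1k, Mccc1 and Mccc2. They were chosen by gene symbol, 10 of the 38924 genes in the deposited expression table, and 9 of them were expressed highly enough to be tested. Liver RNA came from 20 males, with 5 mice in each of 4 groups, which had been on diet for 12 weeks. NDWT and HFWT were C57BL/6J mice (WT) on control diet and on CDAHFD, a diet used to produce steatohepatitis and fibrosis. CDAHFD is high in fat, lacks choline and is limited in methionine, and its protein is replaced by defined L-amino acids. NDKO and HFKO were mice of a TSP-1 knockout line (TSP-1 null) on the same 2 diets. TSP-1, the product of Thbs1, is a secreted matrix glycoprotein known for activating latent TGF-β. All mice were bought at 5 weeks of age and acclimated for 1 week, and WT and null mice came as separate lines, so the deletion cannot be told apart from other differences between the lines. CDAHFD and the control chow were bought as different diets, so no single nutrient can be told apart from the others.

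In the first step the amino group is moved to another keto acid by a branched-chain aminotransferase, cytosolic (Bcat1) or mitochondrial (Bcat2). The resulting keto acids are decarboxylated by the branched-chain keto acid dehydrogenase complex, the committed step, for which liver is a major site, whereas liver is known for low aminotransferase activity. The complex consists of a decarboxylase with an alpha (Bckdha) and a beta subunit (Bckdhb), a lipoate-bearing acyltransferase core (Dbt) and a dihydrolipoamide dehydrogenase (Dld) that other mitochondrial complexes share. The kinase Bckdk phosphorylates the alpha subunit and switches the complex off, and the phosphatase Ppm1k removes the phosphate and switches it on. Further along the leucine branch, methylcrotonyl-CoA carboxylase is built from a biotin-carrying alpha subunit (Mccc1) and a beta subunit (Mccc2).

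Libraries held 15641545 to 23276322 fragments assigned to genes. The defining markers of hepatocytes were abundant, with summed FPKM (fragments scaled to gene length and library total) of 7 markers between 32900 and 56600 in the 20 libraries. The check of the targeted gene went against the labels on control diet: Thbs1 stood at 0.058 to 0.326 FPKM in NDWT and at 0.986 to 1.895 FPKM in NDKO, and at 3.46 to 6.099 in HFWT and 3.048 to 4.398 in HFKO. The table holds 1 value for the whole gene and does not show whether the deleted part was read, so the groups below are those of the labels, and every genotype direction rests on them. In HFWT replicate 5 the RNA gene Gm23935 took 1.083% of fragments against 0.027 to 0.229% in the other 19 libraries. On CDAHFD the median log2FC of all 14524 tested genes was 0.53 in WT and 0.50 in null mice, so FPKM of most genes was higher on that diet, and changes of the members are also given relative to these medians. The same median was -0.07 for TSP-1 null against WT on control diet and -0.10 on CDAHFD.

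On FPKM, a scale that corrects for gene length, the decarboxylase alpha subunit was the most abundant member in every group. Bckdha reached a mean of 147 ± 20.0 FPKM in NDWT and 161 ± 17.2 in NDKO, and of 127 ± 6.78 in HFWT and 138 ± 9.91 in HFKO (SD, n = 5 mice in each group here and below). Its partner Bckdhb stood lower, at 48.3 ± 3.71, 59.0 ± 1.81, 65.9 ± 6.58 and 60.9 ± 3.08 in the same order. Dld followed with 48.1 ± 4.80, 43.3 ± 3.89, 53.0 ± 5.94 and 48.1 ± 3.97 FPKM. Bckdhb and Dld could not be ordered in NDWT, where their mice overlapped, and Bckdhb lay above Dld in every NDKO mouse.

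The acyltransferase core Dbt was present at 21.1 ± 3.09 and 25.4 ± 4.42 FPKM in the control diet groups NDWT and NDKO, and at 20.2 ± 4.06 and 20.4 ± 2.71 in the CDAHFD groups HFWT and HFKO. The order of Dbt, Ppm1k and Mccc2, all between 18.3 and 42.0 FPKM in the control diet mice, differed between mice, and on CDAHFD Ppm1k fell below both. At the low end stood Bcat2, Bckdk and Mccc1. The deposited length of Mccc1 is 10442 bases, whereas its principal transcript in GENCODE has 2455 bases, and over that length its mean level was 18.6 ± 1.40 FPKM in NDWT in place of 4.38 ± 0.329. Bcat2 is counted over 3899 bases against 1772 in its principal transcript, which gives 19.4 ± 3.35 FPKM in NDWT in place of 8.81 ± 1.52. The place of these 2 genes in the order therefore depended on the length used, while differences between groups did not.

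**Figure D1:**
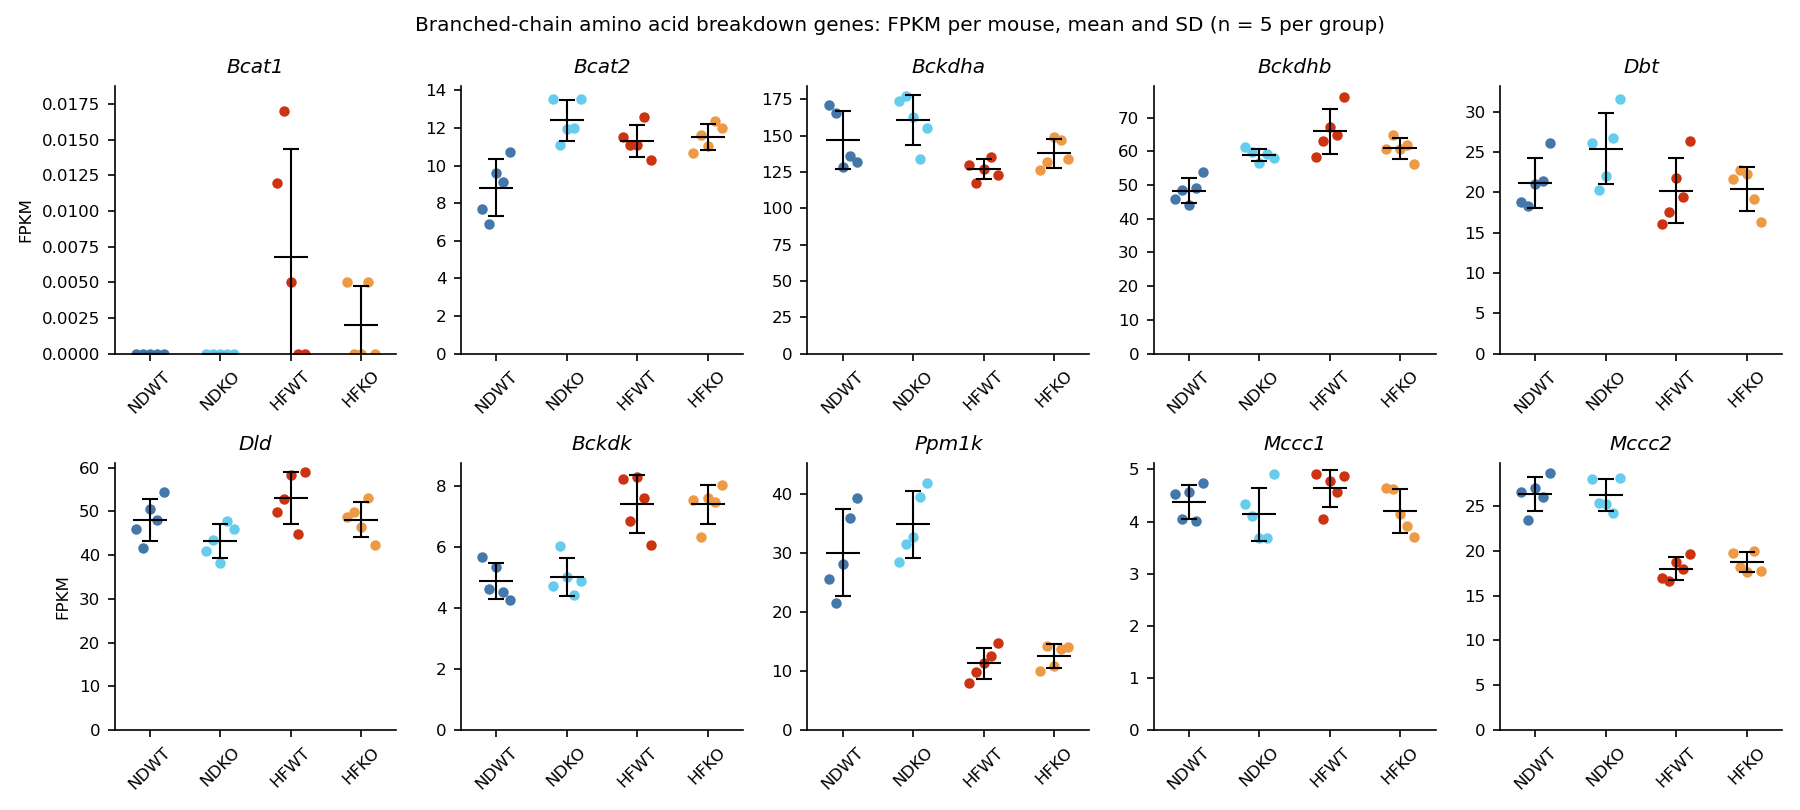
FPKM of the 10 members (vertical axes, starting at 0) in each of the 20 mice, by group, with bars for the mean and SD of 5 mice. Ppm1k and Mccc2 are lower in both CDAHFD groups than in both control diet groups without overlap, Bckdk is higher, and Bcat1 lies at or near 0 throughout, on an axis of its own.

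The aminotransferases differed from each other most. Bcat1 (GRCm38 chromosome 6, 144993835 to 145076184, minus strand) had 0 fragments in all 10 control diet libraries, at most 3 in a HFWT library and at most 1 in a HFKO library. In a library of median size 3 fragments correspond to 0.017 FPKM, so Bcat1 lay at or under this floor in every group and no fold change is given. The Bcat1 to Bcat2 ratio, among the 5 ratios tested below, therefore holds only Bcat2 and the pseudocount, and its one call, a difference of -0.50 in NDKO against NDWT (exact permutation p = 0.00794), restates the Bcat2 difference. The floor covers counting error only. Bcat2 (chromosome 7, 45570153 to 45589710, plus strand), the mitochondrial enzyme, was read in all libraries, with 449 to 1090 fragments.

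Bcat2 FPKM was 7.70, 6.90, 9.62, 9.10 and 10.7 in the 5 NDWT mice and 13.5, 11.1, 11.9, 12.0 and 13.6 in the 5 NDKO mice. Every NDKO mouse was above every NDWT mouse. On CDAHFD the values were 11.5, 11.1, 11.1, 12.6 and 10.3 in HFWT and 10.7, 11.6, 11.0, 12.4 and 12.0 in HFKO. These 2 groups overlapped, and their means of 11.3 and 11.5 lay between those of the control diet groups, 8.81 and 12.4.

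The genotype difference on control diet was a log2FC of 0.50 (SE 0.10, limma FDR = 0.00255), which passed the FDR threshold of 0.05 but not the fold threshold of 0.58. With median of ratios scaling, which sets the typical gene equal between libraries, it was 0.58 (FDR = 0.00129) and passed both, as 2.40% of all tested genes did in the higher direction. CDAHFD against control diet gave 0.37 in WT (SE 0.10, FDR = 0.00215) and -0.10 in null mice (SE 0.10, FDR = 0.354), and relative to the median gene -0.16 and -0.60. The difference between these diet effects, a log2 difference of -0.47 (SE 0.14), did not pass the test (interaction FDR = 0.103). Bcat2 shares 622 exonic bases with the antisense gene 0610005C13Rik, which stood at 31.1 to 70.2 FPKM, was higher in NDKO than in NDWT (log2FC 0.27, FDR = 0.0281) and lower on CDAHFD (log2FC -0.52 in WT and -0.63 in null mice, FDR = 7.41e-06 and 7.13e-07). The strand setting of the counting is not given in the sources used here, so reads of the 2 genes may not be separated, and the part of the antisense gene in the Bcat2 values was not tested.

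Across the 9 tested members, CDAHFD against control diet called 2 in WT livers, 1 higher (Bckdk) and 1 lower (Ppm1k). Over all tested genes 48.8% were called in that comparison, 44.1% higher and 4.62% lower (23.1% and 14.8% with median of ratios scaling). In null livers 1 member was called, Ppm1k, lower, where 45.9% of all tested genes were called, 41.9% higher and 4.00% lower (22.6% and 13.2%). Without the fold threshold 6 members passed in WT, 3 higher (Bcat2, Bckdhb, Bckdk) and 3 lower (Bckdha, Ppm1k, Mccc2), and 4 passed in null mice, where Bckdk was higher and Bckdha, Ppm1k and Mccc2 lower. By this rule 73.1% and 71.6% of all tested genes passed.

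The median log2FC of the 9 members was 0.08 in WT and -0.10 in null mice, beside 0.53 and 0.50 over all tested genes, and 8 of the 9 members lay below that median in each genotype. Bckdk was the exception in both. Under median of ratios scaling no member was called higher, and 4 were called lower in WT (Bckdha, Dbt, Ppm1k, Mccc2) and 5 in null mice (those 4 and Bcat2), with 14.8% and 13.2% of all tested genes called lower. The 2 diet comparisons use different mice and share no library.

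**Figure D2:**
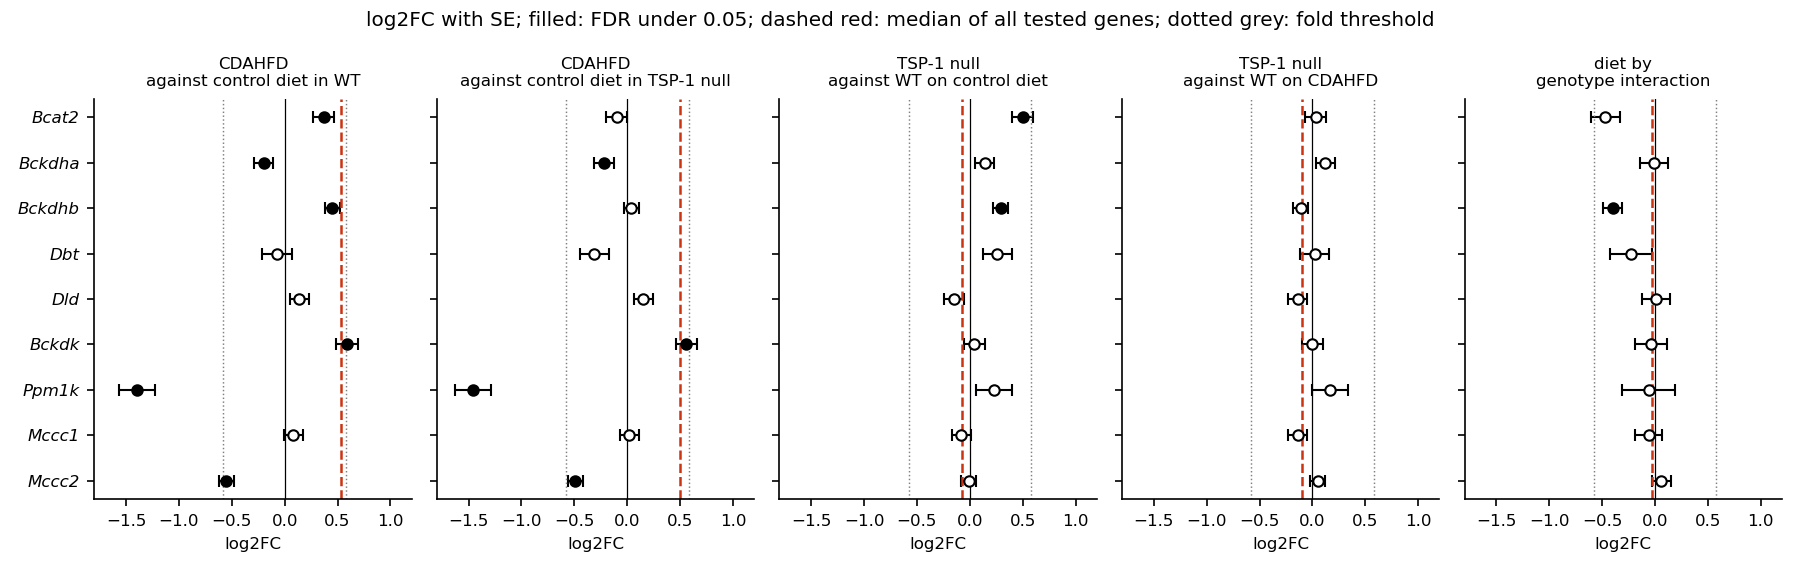
log2FC (horizontal axes) with SE for the 9 tested members in the 4 comparisons, and the log2 difference between genotype effects in the panel of the interaction. Filled points have FDR under 0.05, the red dashed line is the median of all tested genes (0.53 and 0.50 in the diet panels) and grey dotted lines mark the fold threshold of 0.58: Ppm1k is the member farthest from the line in both diet panels.

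The phosphatase that switches the complex on showed the largest change of any member. Ppm1k (chromosome 6, 57506502 to 57535426, minus strand) stood at 25.7, 21.6, 28.1, 35.9 and 39.4 FPKM in the NDWT mice and at 7.91, 9.82, 11.5, 12.6 and 14.7 in the HFWT mice. In null mice it was 28.6, 31.5, 32.8, 39.6 and 42.0 FPKM on control diet and 9.97, 14.3, 10.8, 13.8 and 14.1 on CDAHFD. The highest CDAHFD mouse of either genotype was below the lowest control diet mouse. At least 789 fragments supported each value.

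Ppm1k fell by 1.40 on the log2 scale in WT (SE 0.17, FDR = 6.56e-07), 2.65-fold lower on log2(FPKM + 0.1), and by 1.46 in null mice (SE 0.17, FDR = 4.23e-07), 2.76-fold lower. Relative to the median gene the log2 changes were -1.94 and -1.96, and 1.40% and 1.28% of all tested genes had a lower log2FC. Over all alternatives the log2FC ranged from -1.94 to -1.28 in WT and from -1.98 to -1.38 in null mice, and it stayed called in each of them. The genotype difference was 0.23 on control diet and 0.17 on CDAHFD (SE 0.17 for both, FDR = 0.429 and 0.639), and the groups overlapped.

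The kinase that opposes it moved the other way in FPKM. Bckdk (chromosome 7, 127904082 to 127909664, plus strand) was at 5.67, 4.64, 5.34, 4.53 and 4.25 FPKM in NDWT and at 8.25, 6.86, 8.31, 7.61 and 6.08 in HFWT. In NDKO it was at 4.71, 6.05, 5.03, 4.43 and 4.89 FPKM and in HFKO at 7.54, 6.34, 7.62, 7.50 and 8.05. In both genotypes every CDAHFD mouse was above every control diet mouse of the same genotype, as held for 50.5% of all tested genes in WT and 52.7% in null mice.

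Bckdk rose by a log2FC of 0.59 in WT (SE 0.10, FDR = 4.00e-05), 1.51-fold, which is just past the fold threshold, and the value of 0.56 in null mice (SE 0.10, FDR = 8.54e-05), 1.47-fold, was just short of it. Relative to the median gene both changes were 0.06, at the 53.7th and 53.9th percentile of all tested genes. With median of ratios scaling the log2FC was 0.06 and 0.04 (FDR = 0.587 and 0.699). Bckdk thus changed as the typical gene of these libraries did, and whether its own level rose depends on the scaling. The call in WT was also lost without NDWT replicate 2, 4 or 5 or HFWT replicate 1 or 3 (lowest log2FC 0.55), and was gained in null mice without NDKO replicate 2 or HFKO replicate 2 (0.62 and 0.61).

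The ratio of kinase to phosphatase within a library does not depend on the scaling between libraries. The Bckdk to Ppm1k ratio, computed on FPKM + 0.1, was 0.224, 0.218, 0.193, 0.129 and 0.110 in NDWT and 1.04, 0.702, 0.728, 0.606 and 0.417 in HFWT. In null mice it was 0.168, 0.195, 0.156, 0.114 and 0.119 on control diet and 0.759, 0.448, 0.705, 0.546 and 0.576 on CDAHFD. All 10 CDAHFD livers had more kinase transcript per phosphatase transcript than all 10 control diet livers.

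The log2 ratio was higher on CDAHFD by 2.00 in WT (-0.58 ± 0.48 against -2.57 ± 0.47) and by 2.02 in null mice (-0.75 ± 0.30 against -2.76 ± 0.33). Both differences reached p = 0.00794 in a two-sided exact permutation test, the smallest p that 5 against 5 mice allow, and 0.0265 after Benjamini-Hochberg adjustment over 20 tests of 5 ratios in 4 comparisons. The genotype differences were -0.19 on control diet (exact p = 0.460) and -0.17 on CDAHFD (exact p = 0.540). The diet effect in null mice less that in WT was 0.02 (exact p = 0.948, this test was chosen with the values in view). Most of the ratio's change came from its denominator on the FPKM scale, and the ratio says nothing of the amounts or activities of the enzymes.

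**Figure D3:**
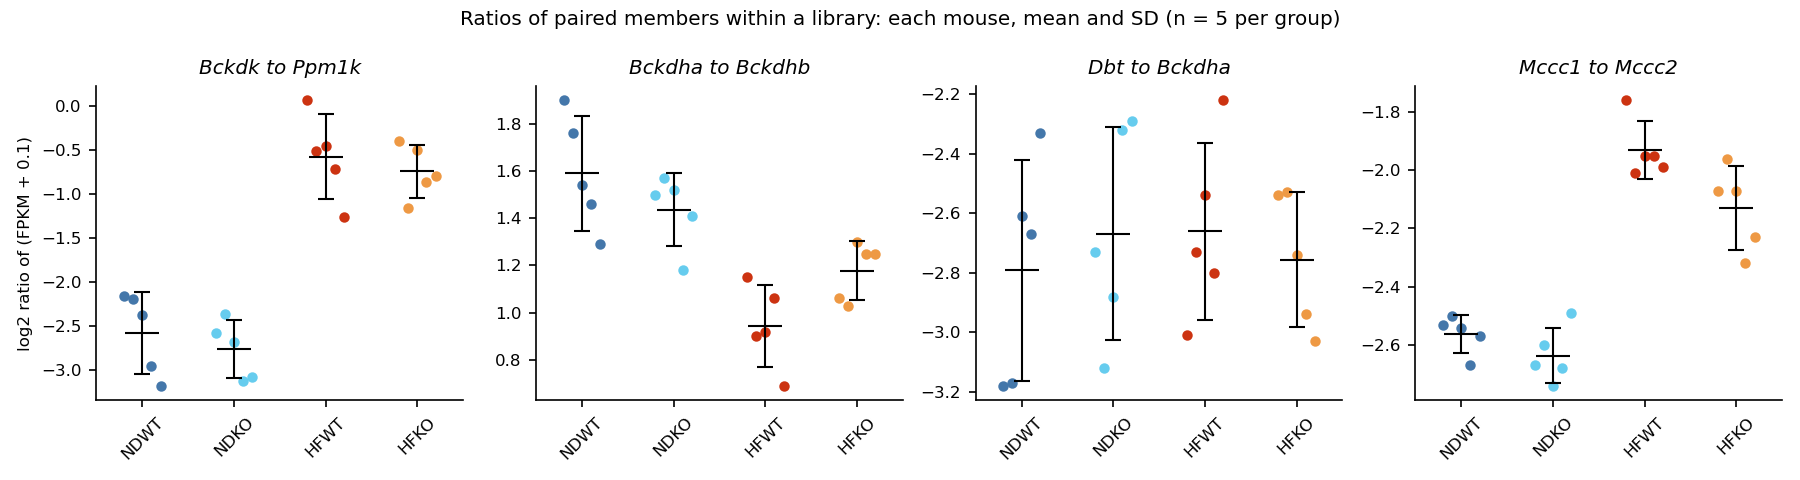
log2 ratios of 4 pairs of members within each library (vertical axes, log2 of FPKM + 0.1, not starting at 0), 1 point per mouse, with the mean and SD of 5 mice per group. The Bckdk to Ppm1k ratio is higher in all CDAHFD mice, and the Dbt to Bckdha ratio overlaps in all groups.

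The promoters of the 2 opposing regulators and of Mccc2, the members whose levels did not overlap between diets in either genotype, are shown so that their sequences can be compared. Each is the 250 bases before the RefSeq start site (GRCm38.p6), 5′ to 3′ on the gene's own strand, with capitals for matches on either strand to 5 motifs: the E-box searched as CACGTG, the GC box searched as GGGCGG, the CCAAT box searched by those letters, the TATA box searched as TATAAA, and the core of the cyclic AMP response element searched as TGACG.
Bckdk, chr7:127903823-127904072, plus strand: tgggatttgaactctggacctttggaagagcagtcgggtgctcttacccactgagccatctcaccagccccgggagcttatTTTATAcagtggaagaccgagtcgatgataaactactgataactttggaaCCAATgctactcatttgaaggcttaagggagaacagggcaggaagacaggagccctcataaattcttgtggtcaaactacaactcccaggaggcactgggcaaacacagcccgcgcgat
Ppm1k, chr6:57535488-57535737, minus strand: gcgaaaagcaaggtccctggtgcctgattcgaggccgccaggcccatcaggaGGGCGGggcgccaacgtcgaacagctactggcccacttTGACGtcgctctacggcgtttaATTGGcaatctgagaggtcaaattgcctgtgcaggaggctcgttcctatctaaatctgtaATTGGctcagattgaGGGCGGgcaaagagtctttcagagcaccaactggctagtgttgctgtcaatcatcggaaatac
Mccc2, chr13:100015640-100015889, minus strand: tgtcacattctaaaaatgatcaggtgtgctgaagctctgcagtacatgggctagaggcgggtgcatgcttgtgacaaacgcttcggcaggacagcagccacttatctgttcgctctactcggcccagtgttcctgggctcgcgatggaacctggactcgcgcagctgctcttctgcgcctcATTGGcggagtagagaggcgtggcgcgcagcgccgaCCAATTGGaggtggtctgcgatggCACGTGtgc
The Ppm1k window holds GC boxes at -198 and -63, CCAAT boxes at -138 and -78 and a cyclic AMP response element core at -160, counted from the start site to the first base of the match. The Bckdk window holds none of the GC boxes and has a CCAAT box at -119 and a TATA box, on the opposite strand, at -169. The Mccc2 window holds an E-box at -9 and CCAAT boxes at -69, -33 and -30, the last 2 overlapping on opposite strands. Among 32851 RefSeq promoter windows of this length, 6.02% hold the E-box, 32.7% the GC box, 33.8% the CCAAT box, 12.4% the TATA box and 17.8% the cyclic AMP response element core. These matches are a description of the letters only. Of the 10 members 9 had an entry, and Dbt did not.

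Among the subunits of the complex, the alpha subunit of the decarboxylase and its beta subunit did not move together. Bckdha (chromosome 7, 25629852 to 25658761, minus strand) was at 171, 165, 129, 136 and 132 FPKM in NDWT and at 130, 117, 127, 135 and 123 in HFWT. It was at 174, 177, 163, 134 and 155 FPKM in NDKO and at 127, 132, 149, 147 and 134 in HFKO. The diet groups overlapped in both genotypes, with a log2FC of -0.20 in WT (SE 0.09, FDR = 0.0463) and -0.22 in null mice (SE 0.09, FDR = 0.0346), or -0.73 and -0.72 relative to the median gene. Without HFWT replicate 5 the value in WT was -0.19 and the FDR 0.0773. Bckdha shares 1171 exonic bases with the antisense gene B3gnt8, whose FPKM was 0.578 to 4.38 and rose on CDAHFD (log2FC 2.09 in WT, FDR = 3.34e-09).

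Bckdhb (chromosome 9, 83925150 to 84124239, plus strand) was at 45.8, 48.6, 44.0, 49.2 and 53.7 FPKM in NDWT, the lowest group, without overlap with any other. In NDKO it was at 61.4, 59.8, 56.6, 59.3 and 58.2 FPKM. On CDAHFD it was at 58.4, 62.9, 67.2, 64.8 and 76.2 FPKM in HFWT and at 60.7, 64.9, 60.6, 61.9 and 56.3 in HFKO. NDKO, HFWT and HFKO overlapped with each other. Over all tested genes 50.5% had HFWT above NDWT without overlap, and 2.33% had NDKO above NDWT.

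CDAHFD against control diet gave a log2FC of 0.45 for Bckdhb in WT (SE 0.07, FDR = 6.43e-06) and 0.04 in null mice (SE 0.07, FDR = 0.569). Relative to the median gene these were -0.09 and -0.45, and with median of ratios scaling -0.10 and -0.48, so the sign of the value in WT depends on the scaling. The difference of the diet effects does not depend on a shift common to both diet comparisons, and it was -0.40 (SE 0.09, interaction FDR = 0.0492), past the FDR threshold and short of the fold threshold. It was the sole member to pass at any fold, where 0.854% of all tested genes did. The value lies at the threshold: it had FDR under 0.05 in 8 of 31 alternatives, with a range of 0.0255 to 0.128, while its log2 value stayed between -0.44 and -0.35. The highest FDR, 0.128, was that with median of ratios scaling (log2 difference -0.38, SE 0.12), so passing the threshold also depends on the scaling.

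The Bckdha to Bckdhb ratio was 2.45 to 3.73 in NDWT and 1.62 to 2.22 in HFWT, without overlap, and 2.26 to 2.96 in NDKO and 2.04 to 2.46 in HFKO, with overlap. The log2 ratio was lower on CDAHFD by 0.65 in WT, a difference of -0.65 (exact permutation p = 0.00794, adjusted 0.0265), and the difference was -0.26 in null mice (exact p = 0.0317, adjusted 0.0794). The diet effects differed by 0.39 (exact p = 0.0242, adjusted over 5 ratios 0.121), which did not pass. In HFKO the ratio was above that in HFWT by 0.23 on the log2 scale (exact p = 0.0476), which was not kept after adjustment over the 20 tests.

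Dbt (chromosome 3, 116513070 to 116549976, plus strand) and Dld (chromosome 12, 31331564 to 31351437, minus strand) overlapped between all groups. Dbt ranged from 18.3 to 26.1 FPKM in NDWT and 20.3 to 31.6 in NDKO, and on CDAHFD from 16.1 to 26.4 in HFWT and 16.3 to 22.8 in HFKO. Its log2FC on CDAHFD was -0.07 in WT and -0.31 in null mice (SE 0.14 for both, FDR = 0.650 and 0.0578). Relative to the median gene these were -0.60 and -0.80, and with median of ratios scaling it was called lower in both genotypes (log2FC -0.61 and -0.82).

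Dld ranged from 41.5 to 54.3 FPKM in NDWT and 38.1 to 47.8 in NDKO, and on CDAHFD from 44.9 to 59.1 in HFWT and 42.4 to 53.0 in HFKO. Its log2FC on CDAHFD was 0.14 in WT and 0.15 in null mice (SE 0.09, FDR = 0.161 and 0.128), and with median of ratios scaling it was -0.40 and -0.37. The Dbt to Bckdha ratio, from 0.110 to 0.215 over all 20 livers, differed in no comparison (differences of -0.10 to 0.13 on the log2 scale, exact permutation p from 0.540 to 0.635). The SD of that log2 ratio was 0.23 to 0.37 per group, which limits the difference that could be seen.

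The 2 subunits of methylcrotonyl-CoA carboxylase separated on CDAHFD. Mccc2 (chromosome 13, 99948533 to 100015639, minus strand), the beta subunit, was at 26.6, 23.4, 27.0, 26.0 and 28.6 FPKM in NDWT and at 16.9, 16.6, 18.8, 18.0 and 19.6 in HFWT. In null mice it was at 28.0, 25.4, 25.2, 24.2 and 28.1 FPKM on control diet and at 19.8, 18.2, 17.7, 19.9 and 17.7 on CDAHFD. No CDAHFD mouse reached the lowest control diet mouse, as held in the lower direction for 5.70% of all tested genes in WT and 5.03% in null mice.

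The log2FC of Mccc2 was -0.55 in WT (SE 0.07, FDR = 4.57e-07) and -0.49 in null mice (SE 0.07, FDR = 2.36e-06), 1.46-fold and 1.40-fold lower and just short of the fold threshold. Relative to the median gene the changes were -1.08 and -0.98, and 5.85% and 6.13% of all tested genes had a lower log2FC. It was called under median of ratios scaling in both genotypes (log2FC -1.09 and -1.0), and in WT without HFWT replicate 5 (-0.58) and without NDWT replicate 2 (-0.59).

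Mccc1 (chromosome 3, 35959312 to 36000678, minus strand), the alpha subunit, overlapped between all groups, with 4.02 to 4.74 FPKM in NDWT and 3.69 to 4.91 in NDKO, and on CDAHFD 4.04 to 4.91 in HFWT and 3.70 to 4.64 in HFKO. Its log2FC was 0.08 in WT and 0.02 in null mice (SE 0.09, FDR = 0.438 and 0.830), and with median of ratios scaling -0.45 and -0.49. The log2 ratio of Mccc1 to Mccc2 was higher on CDAHFD by 0.63 in WT and by 0.51 in null mice (exact permutation p = 0.00794 for both, adjusted 0.0265), without overlap. The ratio in HFKO was below that in HFWT (difference -0.19, exact p = 0.0238, adjusted 0.0680), which did not pass. Of the antisense genes that overlap exons of Mccc1, Gm15952 stood at 0.464 to 1.99 FPKM.

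Between genotypes no member passed both thresholds on either diet. On control diet no member was called in libraries labelled NDKO against NDWT, where 4.77% of all tested genes were called, and the same 2 members that had an unadjusted p under 0.05 passed the FDR threshold at any fold, Bcat2 and Bckdhb, both higher, where 13.1% of all tested genes passed. The log2FC of Bckdhb was 0.29 (SE 0.07, FDR = 0.00707). Both were without overlap in the higher direction, as were 2.33% of all tested genes. The median log2FC of the 9 members was 0.14 against -0.07 over all tested genes. These comparisons share the NDWT mice with the diet comparison in WT, in which the same 2 genes also passed the FDR threshold. On CDAHFD no member was called and none passed the FDR threshold, where 0.496% of all tested genes were called and 1.12% passed, and the log2FC of the 9 members lay between -0.14 and 0.17. The lowest unadjusted limma p of a member there was 0.114, and no member was below 0.05. No member was called in the interaction, where 0.647% of all tested genes were, and 2 members, Bcat2 and Bckdhb, had an unadjusted limma p under 0.05. limma voom on recovered fragments also called 0 members in both genotype comparisons and in the interaction.

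Later steps of the pathway, and genes of its cofactors, related enzymes and linked factors, were followed in 47 further genes in 8 lists, all of them tested. On CDAHFD 7 were called higher and 8 lower in WT, where 44.1% of all tested genes were called higher and 4.62% lower, and 6 higher and 6 lower in null mice, beside 41.9% and 4.00%. Their median log2FC was -0.20 in both genotypes, below the medians of all tested genes. With median of ratios scaling 3 were called higher and 30 lower in WT (23.1% and 14.8% of all tested genes), and 3 and 29 in null mice (22.6% and 13.2%). How many of these genes were called, and in which direction, therefore depends on the scaling.

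On FPKM few enzymes downstream of the complex were called, and with median of ratios scaling most were called lower. Of the 8 enzymes of the valine and isoleucine steps 2 were called lower in WT and 1 in null mice, with list medians of -0.39 and -0.36. Of all tested genes 4.62% and 4.00% were called lower. With median of ratios scaling all 8 were called lower in both genotypes, beside 14.8% and 13.2% of all tested genes. Hsd17b10, a mitochondrial hydroxyacyl-CoA dehydrogenase of the isoleucine branch, fell from 158 ± 24.8 FPKM in NDWT to 78.4 ± 10.4 in HFWT (log2FC -1.01, FDR = 6.47e-07) and from 216 ± 28.8 in NDKO to 67.1 ± 11.2 in HFKO (log2FC -1.69, FDR = 7.30e-10). Acat1, the thiolase that ends that branch, fell from 174 ± 9.75 to 103 ± 15.4 FPKM in WT (log2FC -0.77, FDR = 5.48e-07), and its log2FC of -0.39 in null mice was below the fold threshold. None of the 3 distal leucine enzymes was called, with medians of -0.18 and -0.26, and with median of ratios scaling 2 were called lower in each genotype. Of the 6 genes of the propionyl-CoA steps 1 was called, Mmab, an enzyme of the cobalamin cofactor, which rose from 3.31 ± 0.504 to 7.34 ± 1.65 FPKM in WT (log2FC 1.11, FDR = 1.06e-06) and from 2.64 ± 0.293 to 6.58 ± 1.21 in null mice (log2FC 1.27, FDR = 2.07e-07). With median of ratios scaling 1 of these 6 genes was called higher and 5 lower in each genotype.

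Genes that supply cofactors showed both directions. Lipt2, which acts in lipoate transfer, was called higher in both genotypes (log2FC 1.05 and 0.82), and with median of ratios scaling in neither (0.53 and 0.32). Hlcs, which attaches biotin to carboxylases such as the Mccc1 protein, was called higher in WT (log2FC 0.65, FDR = 0.000282, and 0.12 with median of ratios scaling), with 0.47 in null mice, or -0.04 with that scaling. Btd, which recycles biotin, was called lower in null mice (log2FC -0.58, FDR = 3.05e-05), with -0.40 in WT. The median of this list of 6 was 0.32 in WT and 0.34 in null mice.

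Of 10 genes of the other complexes that use Dld, Gldc of the glycine cleavage system was called lower in WT (log2FC -0.89, FDR = 9.01e-06) and in null mice (log2FC -0.82, FDR = 2.69e-05), and Dhtkd1 in null mice (log2FC -0.73). The list medians were -0.07 and -0.03, and none was called higher. Of the 3 other biotin carboxylases, Acacb fell from 8.87 ± 3.01 to 2.88 ± 0.575 FPKM in WT (log2FC -1.54, FDR = 1.41e-06) and from 11.8 ± 1.84 to 3.69 ± 0.734 in null mice (log2FC -1.66, FDR = 6.37e-07). Pcx, pyruvate carboxylase, fell with a log2FC of -0.65 in each genotype (FDR = 2.79e-06 and 3.37e-06). Acaca was called higher in null mice (log2FC 0.86, FDR = 2.12e-06), though not with median of ratios scaling (0.35), and in WT its log2FC of 0.39 was below the fold threshold and turned to -0.14 with that scaling.

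The kinases and phosphatases of pyruvate dehydrogenase, the relatives of the pair Bckdk and Ppm1k for a sister complex, moved in both directions within each class in WT. Of 7 genes 2 were called higher in both genotypes, the phosphatase subunit gene Pdp1 (log2FC 2.07 and 1.55, FDR = 2.71e-09 and 1.57e-07) and the kinase gene Pdk3 (log2FC 2.47 and 1.82, FDR = 7.01e-09 and 4.69e-07). Both were low on control diet, with means of at most 0.266 and 0.138 FPKM, so their changes include the effect of the pseudocount. A tested gene needed FPKM above 0.5 in at least 5 libraries, and the highest control diet values of Pdp1 and Pdk3 were 0.332 and 0.228 FPKM. Both genes were tested only through CDAHFD libraries, so their calls are tied to the filter. Pdp2 and Pdk1 were called lower in WT (log2FC -1.02 and -0.62) and had -0.39 and -0.56 in null mice, where both were called lower with median of ratios scaling (-0.90 and -1.07). Pdp2 encodes a phosphatase and Pdk1 a kinase. Pdp2 was also called lower in NDKO against NDWT (log2FC -0.63, FDR = 0.00192), although the groups overlapped, and was not called there with median of ratios scaling (-0.56).

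**Figure D4:**
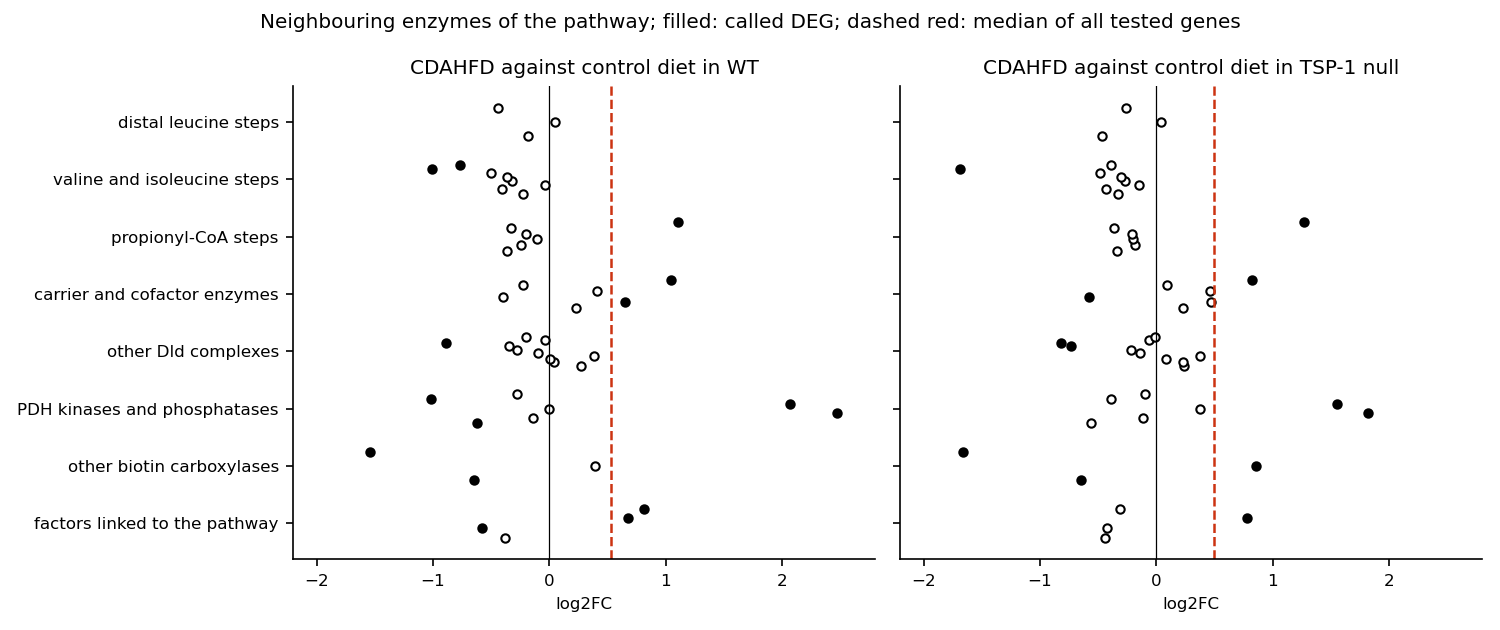
log2FC on CDAHFD (horizontal axes) of 47 further genes in 8 lists, in WT and in null mice, 1 point per gene. Filled points were called, and the red dashed line is the median of all tested genes (0.53 and 0.50): most genes lie to its left, and Pdp1 and Pdk3 lie farthest to the right.

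Among 4 factors linked to the pathway, Acly, an ATP citrate lyase reported as a further substrate of the Bckdk kinase, was called higher on CDAHFD in both genotypes (log2FC 0.68 and 0.78, and 0.14 and 0.26 with median of ratios scaling). Ppargc1a, a coactivator of mitochondrial genes, was 1.16 ± 0.504 FPKM in NDWT and 2.84 ± 0.680 in NDKO, without overlap (log2FC 1.28, FDR = 0.00219), and was called higher on CDAHFD in WT (log2FC 0.81, FDR = 0.00597), where the groups overlapped and the call was lost with median of ratios scaling (0.30). In null mice its log2FC on diet was -0.31 (FDR = 0.257). Mlxipl, the carbohydrate response factor, was called lower in WT (log2FC -0.58, FDR = 0.000633). Klf15, a factor known for driving amino acid breakdown, had a log2FC of 0.51 in NDKO against NDWT without overlap (FDR = 0.00223), short of the fold threshold and past it with median of ratios scaling (0.59), and is named after its value was seen. In HFKO against HFWT it was also higher, at 47.1 to 65.6 against 35.1 to 44.0 FPKM (log2FC 0.45, FDR = 0.0271), again short of the fold threshold. At any fold 2 of the 47 genes passed the FDR threshold in that comparison, Klf15 and Ivd, beside 1.12% of all tested genes. Ivd, of the distal leucine steps, was lower, at 20.2 to 25.7 FPKM in HFKO against 29.9 to 33.6 in HFWT. Its log2FC was -0.45 (FDR = 0.0034), or -0.35 with median of ratios scaling (FDR = 0.0383). On control diet 1 of the 47 genes was called higher (Ppargc1a) and 1 lower (Pdp2), or 2 higher (Ppargc1a and Klf15) and 0 lower with median of ratios scaling, and in the CDAHFD genotype comparison and the interaction none was called, also by limma voom (8 and 7 had an unadjusted limma p under 0.05), with medians over the 47 genes of 0.00 and 0.01.

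Transcripts that mark cell types differed in level between the diets. Summed FPKM of 7 hepatocyte markers was 48000 to 51800 in NDWT and 32900 to 45000 in HFWT, without overlap, and 51800 to 56600 in NDKO and 40100 to 53500 in HFKO. The mean of Alb, the largest part of this sum, was 25100 in NDWT and 23000 in HFWT, and 27900 in NDKO and 29700 in HFKO. That of Apoa2 was 13500 in NDWT and 7730 in HFWT, and 13300 in NDKO and 8130 in HFKO. The sum of 6 macrophage markers was 132 to 181 in NDWT and 884 to 1190 in HFWT, and 123 to 214 in NDKO and 542 to 1180 in HFKO. Lyz2 made up most of this sum on CDAHFD, with means of 44.6 in NDWT and 870 in HFWT, and 45.3 in NDKO and 621 in HFKO. The mean of Clec4f fell from 67.5 in NDWT to 29.7 in HFWT, and from 69.3 in NDKO to 40.7 in HFKO. For 6 stellate cell and myofibroblast markers the sum was 9.34 to 13.1 in NDWT and 64.3 to 136 in HFWT, and 11.2 to 12.3 in NDKO and 63.0 to 115 in HFKO. Of the hepatocyte markers 2 of 7 were called lower on CDAHFD in WT and 3 of 7 in null mice, with list medians of -0.24 and -0.46. Of the stellate cell markers 6 of 6 were called higher in both genotypes, as were 4 of 4 cholangiocyte, 4 of 4 T and B cell and 3 of 3 proliferation markers, and 4 of 6 macrophage markers, with 1 of 6, Clec4f, lower. Testing asked for FPKM above 0.5 in at least 5 libraries. No control diet library exceeded this level for Mki67, Top2a, Ccnb1, Krt7, Cd8a or Ms4a1, and fewer than 5 did for Krt19 and Cd3e. These markers were tested only through CDAHFD libraries, so their calls are tied to the filter. Of 4 endothelial markers 1 was called higher in WT and 2 in null mice. Over all tested genes 44.1% in WT and 41.9% in null mice were called higher, and 4.62% and 4.00% lower. With median of ratios scaling 7 and 5 of the hepatocyte markers were called lower, and 5 and 4 of the stellate cell and 0 and 1 of the endothelial markers higher. By that scaling 14.8% and 13.2% of all tested genes were called lower, and 23.1% and 22.6% higher.

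The part of these shifts in the changes of Ppm1k, Mccc2 and the other members was not tested, and in whole liver fewer cells of a type and less RNA per cell cannot be told apart. On control diet the hepatocyte sum in NDKO was at or above that in NDWT, and the median log2FC of its markers was 0.20, beside 0.50 and 0.29 for Bcat2 and Bckdhb. Markers of neighbouring tissues were followed as whole lists. Of 5 pancreatic acinar markers Cpa1, Pnlip and Ctrb1 had at most 2 fragments in any library, Cela2a had at most 15, and Cela1 had 120 to 340 (6.22 to 15.2 FPKM). Of 3 adipocyte markers Adipoq and Plin1 had at most 3 fragments and Cfd 0 to 41, with Cfd highest in NDWT (mean 1.25 FPKM against 0.296 in NDKO and 0.234 in HFWT) and called lower in NDKO and in HFWT against that group (log2FC -1.57 and -1.99). Without its NDWT libraries Cfd would not have passed the filter on low values, so these calls are tied to that filter. Of 3 skeletal muscle markers Ckm and Myh4 had at most 3 fragments and Acta1 at most 5. The part of these tissues in the members' values was not tested.

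Within groups, the members varied together only in part. Over deviations of log2(FPKM + 0.1) from the group means in the 20 libraries, the closest pair of members was Bckdhb and Dbt (Pearson r = 0.71), and Bckdk ran against both (r = -0.67 and -0.62). Ppm1k was most like Slc38a4 (r = 0.86), Bckdk like Mrpl10 (r = 0.88), Bckdha like Higd2a (r = 0.93), Bckdhb like Cd302 (r = 0.86), Dbt like Gtf2a2 (r = 0.87) and Dld like Cab39l (r = 0.90). Bcat2 was most like Tmem88b (r = 0.86), Mccc1 like Agxt2 (r = 0.87) and Mccc2 like Oxsm (r = 0.83). Each partner is the closest of the other tested genes in libraries that share depth and base composition effects, so these values are descriptions.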

How the data were processed

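The authors enriched poly(A) RNA from snap-frozen liver (right medial lobe in the series text, right lateral lobe in the paper), made libraries with a directional kit for HiSeq sequencing, and ran the reads through the QuickRNASeq pipeline. The submitters' processing notes name STAR 2.5.2, featureCounts in Subread 1.5.1 and GRCh38, a human build, whereas the coordinates of the table are those of mouse GRCm38. The authors deposited FPKM per gene and library, to 3 decimals, for 38924 genes, with no scaling between libraries beyond total fragments. The strand setting of the counting is not given in the sources used here.

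Groups follow the sample labels, 5 mice each. Fragments per gene were recovered from the FPKM, the deposited gene length and the total that makes values whole: in every library 100.0% of the values that could be checked, 99.509 to 99.893% of those above 0, were whole within 0.02 fragments beyond rounding. Recovered fragments served for depth, floors and 1 alternative. Libraries carry no molecular identifiers, so floors cover counting error only. No pair of libraries within a group was a copy (chi-square per degree of freedom at least 12.1 over 40 pairs).

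Linear models with moderated variances (limma 3.58.1, R 4.3.3, functions lmFit, contrasts.fit and eBayes, trend on) were fitted to log2(FPKM + 0.1) with 4 group means over all 20 libraries. A gene was tested where at least 5 libraries had FPKM above 0.5, which left 14524. It was called where the FDR (Benjamini-Hochberg over all tested genes, two-sided) was under 0.05 and the absolute log2FC above 0.58. All log2FC are on the log2(FPKM + 0.1) scale, which understates changes of low genes. For the interaction, the control diet difference between genotypes was taken from the CDAHFD one. Ratios within a library were compared between 2 groups by two-sided exact permutation tests over 252 arrangements. The exact test of diet effects on ratios between genotypes ran over 63504 arrangements. The fits and tests were tested on simulated data. Recovery of known changes in these data was required only of genes with mean FPKM above 1, a limit set after a first criterion over all genes had held in 1 draw and failed in another. Changes of lower genes were missed more often there. The labels name the mice as separate samples of a group.

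Alternatives were pseudocounts of 0.01 and 1, no filter, FPKM above 1 in at least 5 libraries, mean FPKM above 0.5, quantile normalization or median of ratios scaling, calls without the fold threshold, fits of only the compared groups, eBayes robust or without trend, limma voom on recovered fragments, the replicate number as a block, and fits that leave out each mouse in turn. Median of ratios scaling without the fold threshold, the principal transcript lengths (GENCODE M21) and the test of diet effects on ratios between genotypes were added after seeing the data.

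Members and gene lists were chosen with earlier results of these data known. Named are all members, Thbs1, of each list at most the 4 genes with the lowest FDR among those called in a comparison, any called in the interaction, and the gene most like each member. Klf15, Ivd, Alb, the antisense genes and Gm23935 were named after their values were seen. Of 102 list entries all had a row, 1 matched by identifier. Promoters are RefSeq sequences. Python 3.11.15, numpy 2.4.6, pandas 2.3.3 and scipy 1.17.1 were used, with matplotlib 3.10.9 for figures.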

Additional observations from a re-analysis of the deposited data

Results flagged for a closer look

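1 result stood out by a test of the difference between the genotypes. The genotype effect on Bckdhb differed between the diets, with a log2 difference of -0.40 (SE 0.09, limma interaction FDR = 0.0492). Bckdhb was lower in all 5 NDWT mice (44.0 to 53.7 FPKM) than in any mouse of the other 3 groups, which overlapped. Of all tested genes 50.5% lay higher in HFWT than in NDWT without overlap, and 2.33% higher in NDKO than in NDWT. The value passed the FDR threshold in 8 of 31 alternatives (FDR from 0.0255 to 0.128), among them 3 of the 20 fits that left out 1 mouse. In 36 groups of 5 mice, 4 for each tested member, no mouse stood apart from the others by Dixon's criterion.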

How the results depend on the processing

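Ppm1k stayed called lower on CDAHFD in both genotypes under each alternative run. Of 338 recomputed counts 304 stayed within 1.5 times the value given, of 1521 recomputed log2FC of members 1471 kept their call, and of 480 recomputed ratio differences 457 did. Median of ratios scaling called 4 members in WT, 5 in null mice and 1 (Bcat2) in NDKO against NDWT, and 33 and 32 of the 47 further genes on diet. Quantile normalization called 4 members in null mice and 1 further gene in NDKO against NDWT. With it the call of Bckdk in WT was lost (log2FC 0.00, limma FDR = 0.967), and Mccc1 turned in both genotypes (-0.59 and -0.61). Without the fold threshold 6, 4 and 2 members passed on diet in WT, on diet in null mice and in NDKO against NDWT, and 1 in the interaction, with 37, 37, 6 and, in HFKO against HFWT, 2 further genes. With median of ratios scaling and no fold threshold these were 6, 8 and 2 members and 40, 42, 6 and 2 further genes, and Dld (-0.40 and -0.37), Mccc1 (-0.45 and -0.49) and, in null mice, Bckdhb (-0.48) turned. A pseudocount of 1 called 1 member in WT and took the Bcat1 to Bcat2 ratio on diet in WT past the threshold (-0.33).

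Leaving out 1 mouse gave 1 to 3 members called in WT and 1 to 2 in null mice, and 1 to 3 further genes in NDKO against NDWT (1 without NDWT replicate 1 or NDKO replicate 1) and 0 to 2 in the interaction (2 without NDWT replicate 5, 1 without NDKO replicate 5 or HFKO replicate 3). The Bckdha to Bckdhb ratio ranged from -0.72 to -0.57 in WT (adjusted p = 0.0529 without HFWT replicate 2, 3, 4 or 5) and from -0.33 to -0.22 in null mice (0.0265 without NDKO replicate 4), Bcat1 to Bcat2 in NDKO against NDWT from -0.58 to -0.42 (0.0529 without NDKO replicate 1, 2, 3 or 5), and Mccc1 to Mccc2 in HFKO against HFWT from -0.24 to -0.15 (0.0227 without HFKO replicate 2), by exact permutation of fewer mice.

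With group medians no ratio passed (adjusted p = 0.119): Bckdk to Ppm1k 1.87 and 1.88, Bckdha to Bckdhb -0.62, Mccc1 to Mccc2 0.58 and 0.60, and Bcat1 to Bcat2 -0.40, since medians of 5 take few values. Replicate numbers did not pair the mice: correlations of same-numbered libraries were -0.13 to 0.08. A replicate block called 2, 1, 0, 0 and 0 members, as without it, and left the ratio differences at 2.00, 2.02, -0.65, 0.63, 0.51 and -0.50, where the exact sign flip of 5 pairs could not pass (adjusted p = 0.208).

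Over all genes, calls in NDKO against NDWT were 693, and 393 with a pseudocount of 1 and 1899 without the fold threshold (1765 with median of ratios scaling). In HFKO against HFWT they were 72, and 127 without a filter, 40 with only the groups compared, 132 with limma voom, 163 and 138 without the fold threshold and 38 to 84 without 1 mouse. In the interaction they were 94, and 54 without a filter, 200 with median of ratios scaling and no fold threshold and 36 to 184 without 1 mouse. On diet in null mice they were 6669, and 10406 without the fold threshold. Bcat1, at or under 3 fragments per library, did not pass the filter on low values.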
